A study of Homo sapiens with 16 samples.

Results

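The mRNAs described here carry the symbols of mitochondrial ribosomal proteins (MRP). They were taken as every entry of the count table whose symbol is MRPL or MRPS followed by a number and at most 1 letter, which gave 76 of 19077 entries, 47 with an MRPL symbol (large subunit) and 29 with an MRPS symbol (small subunit). The symbol is not the same as membership of the particle: MRPS36, now KGD4, is among the 76, and 7 ribosomal proteins under other symbols are not. The mitochondrial ribosome translates the few mRNAs of mitochondrial DNA, all of which encode membrane subunits of the respiratory chain and ATP synthase. All of its proteins are encoded in the nucleus, made in the cytosol and imported, and assembly factors bind some of them on the way into the particle. The genes lie on 21 chromosomes. A microRNA (miRNA) guides an Argonaute protein to mRNAs that pair with its seed, bases 2 to 8, and GW182 proteins then bring in the enzymes of deadenylation and decay.

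RNA bound to the RNA-induced silencing complex was sequenced from HEK 293 cells, a transformed human embryonic kidney line, after the RISC-trap procedure, in which a dominant-negative GW182 fragment holds target mRNAs on the complex. The groups were mir550-3p, mir1301-3p, mir1180-3p, mir1260a-5p, mir1271-5p and mir3613-5p with 2 libraries each, and mir124-3p with 3 libraries titled Illumina and 1 titled Solid. The labels of all 16 libraries share the cell line, the pulldown, Trizol extraction and a SOLiD total RNA kit, and they name no genotype difference, dose or time. They name no library without a miRNA and no input RNA, so the reference for each miRNA is the average of the 5 remaining ones. More of an mRNA held by the complex, more of it in the cells and more cells that make it therefore cannot be told apart. The descriptions of both mir550-3p libraries and of mir1301-3p replicate 2 contain bio, which may stand for biological replicates but is not spelled out. The other descriptions do not contain it, and no label names separate cultures for the 2 libraries of a miRNA. The p-values thus measure the spread between libraries, which may be technical.

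The 6 miRNAs with 2 libraries carry 6 different seeds. Their mature sequences (RefSeq, GRCh38.p14) are shown because the seed is what tells the pulldowns apart, and the seed is in capitals.
hsa-miR-550a-3p: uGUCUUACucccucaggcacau
hsa-miR-1301-3p: uUGCAGCUgccugggagugacuuc
hsa-miR-1180-3p: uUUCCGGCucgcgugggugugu
hsa-miR-1260a: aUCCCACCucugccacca
hsa-miR-1271-5p: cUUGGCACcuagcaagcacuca
hsa-miR-3613-5p: uGUUGUACuuuuuuuuuuguuc
On that build hsa-miR-550a-3p is encoded by MIR550A3 at chr7:29680748-29680769 on the minus strand and by MIR550A2 at chr7:32733041-32733062 on the plus strand. The title mir550-3p was read as this arm because the deposited descriptions give 550a. The mir1301-3p sequence lies in MIR1301 at chr2:25328651-25328674 (minus strand), and the mir1180-3p sequence in MIR1180 at chr17:19344513-19344534 (minus strand). The title mir1260a-5p was matched to the RefSeq name hsa-miR-1260a, in MIR1260A at chr14:77266231-77266248 (plus strand). No match of a seed to an mRNA was made, because UTR sequences were not used here.

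Total counts lay between 7612758 and 26527365 per library, and the smallest count of any MRP mRNA in any library was 56, so all 76 were tested in every comparison. Levels are counts scaled to a common library size (CPM) across the 16 libraries. They are not per length and are not compared between genes. All 9 HEK 293 markers checked were detected in each group, and their summed levels were 1339 and 1519 CPM in the mir1301-3p libraries, below all of the other 10, which held 1528 to 2462 CPM. Most of that sum was VIM, at 406 and 643 CPM, and NEFL, at 400 and 389 CPM. The 9 did not move together. LIN28B had 188 and 135 CPM with mir1301-3p, against 58.4 to 144 CPM in the other 10, and LHX1 had 35.0 and 84.3 CPM, against 16.6 to 57.5 CPM. None of the 9 was called in either direction with mir1301-3p in the tests below. Markers of fibroblasts and mesenchyme summed to 58.3 and 157 CPM in the mir1301-3p libraries, against 13.1 to 27.4 CPM in the other 10. TNRC6A, which encodes GW182, took 0.665% to 1.49% of counts in the 12 libraries, 5.11% in mir124 Solid and 1.07% in mir124 Illumina replicate 2, which stood apart from the other two Illumina libraries, at 4.003% and 3.97%.

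The MRP mRNAs as a whole took the largest share of counts in the mir550-3p pulldowns. Their share was 1.05% and 1.08% of all counts in the mir550-3p libraries, against a lowest share of 0.666%, in mir1180-3p replicate 2, and a highest of 0.994%, in mir3613-5p replicate 2, among the other 10. Both mir550-3p libraries lay above the other 10. MRPL14 alone made up 7.59% and 7.15% of the MRP counts there, and without it the shares were 0.970% and 1.01%, against up to 0.974% in mir3613-5p replicate 2. The groups thus overlapped once MRPL14 was left out. The 95% Wilson interval of mir550-3p replicate 1 ran from 1.04% to 1.05% and that of mir1180-3p replicate 2 from 0.661% to 0.671%, and these intervals cover counting error only.

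**Figure D1:**
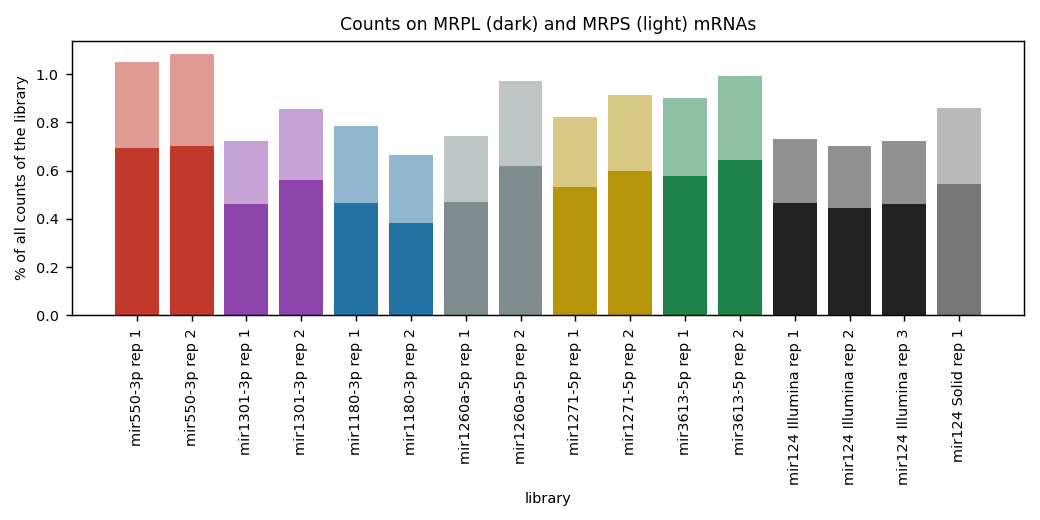
Share of all counts, in percent, that fell on MRPL mRNAs (dark) and MRPS mRNAs (light) in each of the 16 libraries. The mir550-3p bars reach 1.05% and 1.08%, and the lowest bar, mir1180-3p replicate 2, reaches 0.666%.

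Across the 12 libraries a single MRP mRNA spanned between 1.81-fold (MRPL51) and 17.4-fold (MRPL14) from its lowest to its highest library, with a median of 3.11-fold. The 3 with the highest median CPM were MRPL20, MRPL51 and MRPL17. MRPL20 and MRPL17 are large-subunit proteins with bacterial counterparts, and MRPL51 is found only in mitochondrial ribosomes. MRPL20 lay between 260 and 623 CPM over the 12 libraries with a median of 487 CPM, and MRPL51 between 198 and 359 CPM with a median of 273 CPM. MRPL17 lay between 103 and 397 CPM with a median of 256 CPM. The 3 with the lowest medians were MRPL44, MRPL2 and MRPL32. MRPL44 had a median of 14.6 CPM, MRPL2 of 17.4 CPM and MRPL32 of 21.3 CPM, all far above 3 counts in every library.

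The median absolute difference between the 2 libraries of a miRNA was between 0.287 (mir550-3p) and 0.465 (mir1301-3p) on the log2 scale over the MRP mRNAs. The widest single difference was 2.28 for MRPL54 between the mir1301-3p libraries. Counting the miRNA with the highest mean level, 45 of 76 MRP mRNAs (59.2%) were highest with mir550-3p, against 19.9% of all genes tested. The lowest mean was with mir1301-3p for 47 of 76 (61.8%), against 30.1% of all genes.

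**Figure D2:**
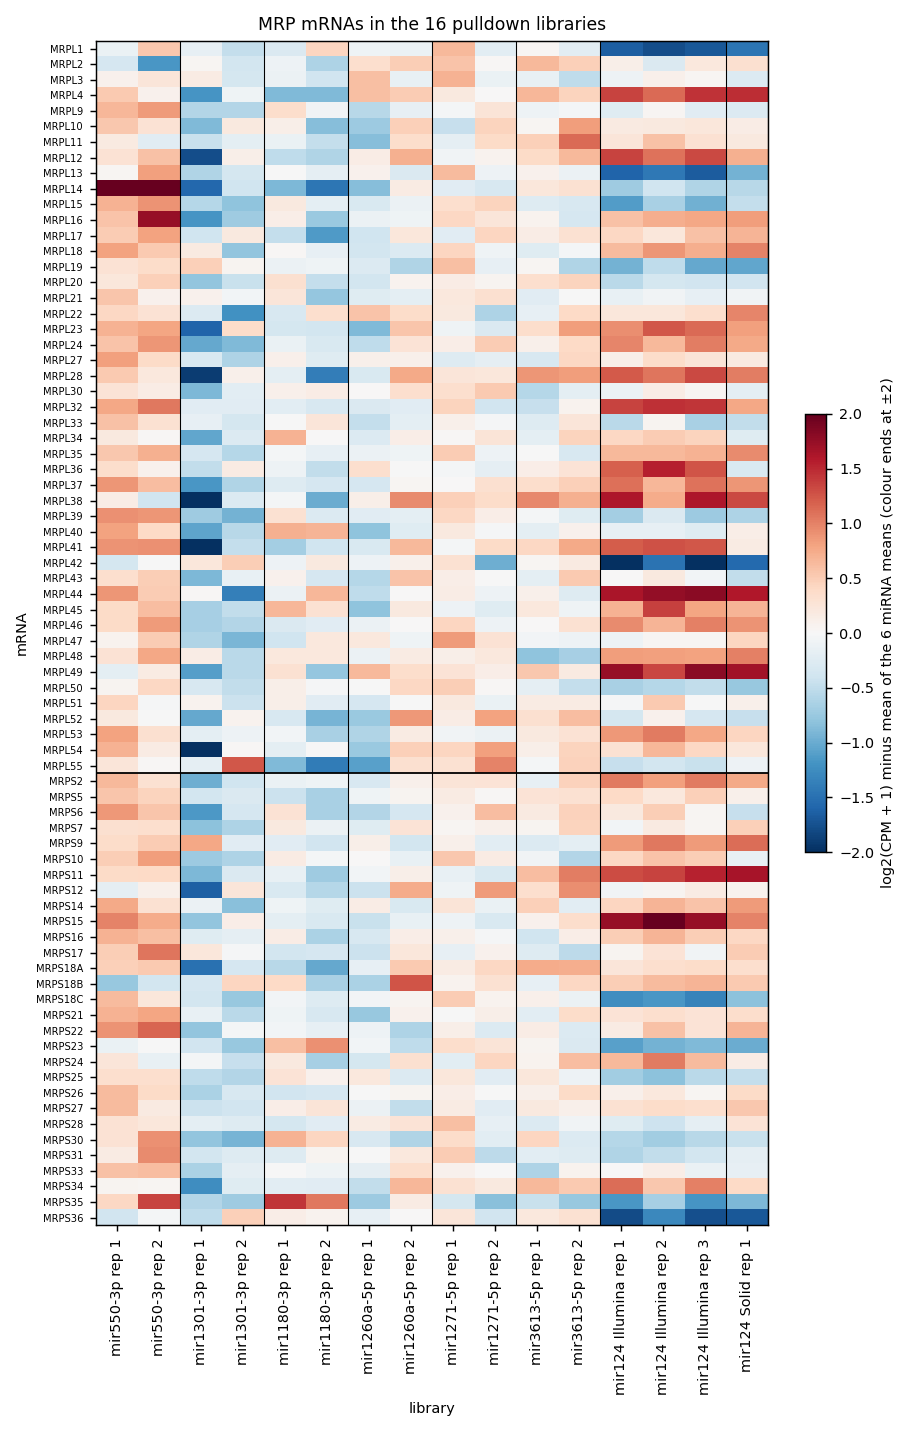
Level of each of the 76 MRP mRNAs (rows, MRPL above the line and MRPS below it) in each of the 16 libraries (columns), as log2(CPM + 1) less the mean of the 6 miRNA means, with colours ending at ±2. The mir550-3p columns are mostly red, the mir1301-3p columns mostly blue, and MRPL14 is the darkest red row in both mir550-3p libraries.

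In an edgeR quasi-likelihood test of any difference among the 6 miRNAs, 4 of the 76 mRNAs passed a Benjamini-Hochberg adjusted p under 0.05, beside 5.72% of all 17658 genes tested. They were MRPL14 (adjusted p = 0.000204), MRPS35 (adjusted p = 0.0148), MRPL16 (adjusted p = 0.0441) and MRPL39 (adjusted p = 0.0489). The share of MRP mRNAs called, 5.26%, was near the background. MRPL14 passed without each single library in turn. MRPS35 did not pass without mir1180-3p replicate 1, mir1180-3p replicate 2 or mir550-3p replicate 2. The count was 1 when each of those libraries was left out, 2 without mir550-3p replicate 1, mir1301-3p replicate 1 or either mir3613-5p library, and 7 without mir1260a-5p replicate 2 or mir1301-3p replicate 2.

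With mir550-3p, 4 MRP mRNAs rose and none fell by the edgeR test, beside 1.2% of all genes called higher and 0.306% called lower. The 4 were MRPL14, MRPL16 and MRPL39 of the large subunit and MRPS22 of the small. At an unadjusted p under 0.05, 31 were higher and 1 was lower, beside 9.02% and 7.4% of all genes, and DESeq2 called 11 higher and none lower, beside 4.89% of all genes called in either direction. The median log2 difference over the 76 was 0.50, beside -0.05 over all genes, and 65 of 76 were positive. Both libraries lay above the other 10 for 23 of the 76, beside 5.19% of all genes, and below them for 0, beside 2.53%.

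MRPL14 is the mitochondrial uL14 protein, which sits on the face of the large subunit that meets the small one and is the site where the assembly factor MALSU1 binds. It had 853 and 836 CPM in the mir550-3p libraries, against a lowest of 49.1, a median of 115 and a highest of 184 CPM in the other 10. Both mir550-3p libraries were far above the highest of the others, and the groups did not overlap. The means were 845 ± 12.2 CPM with mir550-3p (SD, n = 2) and 115 ± 48.8 CPM with the other 5 miRNAs (SD, n = 10), a log2 fold change of 2.92 ± 0.28 (SE) with an edgeR adjusted p of 3.72e-05. It was called in all 18 alternatives run, with log2 fold changes between 2.80 and 3.08. The 4 mir124 libraries, which the comparison did not use, held 90.4 to 112 CPM, within the range of the 10 reference libraries. MRPL14 overlaps TMEM63B on chromosome 6 in RefSeq, and TMEM63B had 2.96 and 4.63 CPM with mir550-3p, a log2 difference of -0.23 ± 0.51 with an edgeR adjusted p of 0.85. The gene has 1 listed pseudogene, and the treatment of reads from it is not given here.

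MRPL16, whose bacterial counterpart lies near the peptidyl transferase centre, had 62.9 and 142 CPM in the mir550-3p libraries, against a lowest of 17.9, a median of 39.0 and a highest of 56.1 CPM in the other 10. The 2 mir550-3p libraries were further apart from each other than the lower of them was from the other 10. The log2 fold change was 1.44 ± 0.30 with an edgeR adjusted p of 0.0238. MRPS22 is a small-subunit protein of mitochondria with no bacterial counterpart. It had 85.6 and 104 CPM with mir550-3p, against a lowest of 25.7, a median of 41.3 and a highest of 50.2 CPM in the other 10, a log2 fold change of 1.20 ± 0.28 with an edgeR adjusted p of 0.0414. MRPL39, also without a bacterial counterpart, had 406 and 397 CPM with mir550-3p, against 112, 186 and 288 CPM as the lowest, median and highest of the other 10. Its log2 fold change was 1.02 ± 0.24 with an edgeR adjusted p of 0.0418. Both libraries lay above the other 10 for each of these 3 mRNAs.

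Next in order of p came MRPL15 at 0.92 ± 0.23 (edgeR adjusted p = 0.0573) and MRPL32 at 1.08 ± 0.29 (edgeR adjusted p = 0.0656), just short of the threshold. MRPL32 is made as a precursor that the m-AAA protease of the inner membrane cuts before it joins the ribosome. The largest negative differences were MRPL2 at -0.94 ± 0.37, with 13.2 and 7.04 CPM in mir550-3p libraries, and MRPS18B at -0.82 ± 0.44, with 42.4 and 56.1 CPM. Neither passed, and both overlapped the other 10 libraries. With mir1301-3p left out of the reference, MRPL14 was the only call. MRPL16 was then at 1.26 (edgeR adjusted p = 0.0782), MRPS22 at 1.16 (edgeR adjusted p = 0.0594) and MRPL39 at 0.86 (edgeR adjusted p = 0.143). MRPL14 was also the only call without mir550-3p replicate 1 and without replicate 2, fits in which mir550-3p is 1 library assumed to vary like the others. Without replicates 1 and 2 in turn, MRPS22 was at 1.28 and 1.12, MRPL39 at 0.95 and 1.10, and MRPL16 at 1.88 and 0.82. The count was 2, MRPL14 and MRPL16, without mir1180-3p replicate 2, mir1301-3p replicate 1 or mir3613-5p replicate 2. Of all genes 0.839%, 1.09% and 0.949% were then called in either direction, in that order. The count was 7 without mir1271-5p replicate 1, beside 3.4% of all genes. The median stayed between 0.37 and 0.56 under all alternatives run. The mir550-3p libraries also had the highest TNRC6A shares of the 12, 1.45% and 1.49%, against 0.665% to 1.13% in the other 10, and their part in these results was not tested.

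**Figure D3:**
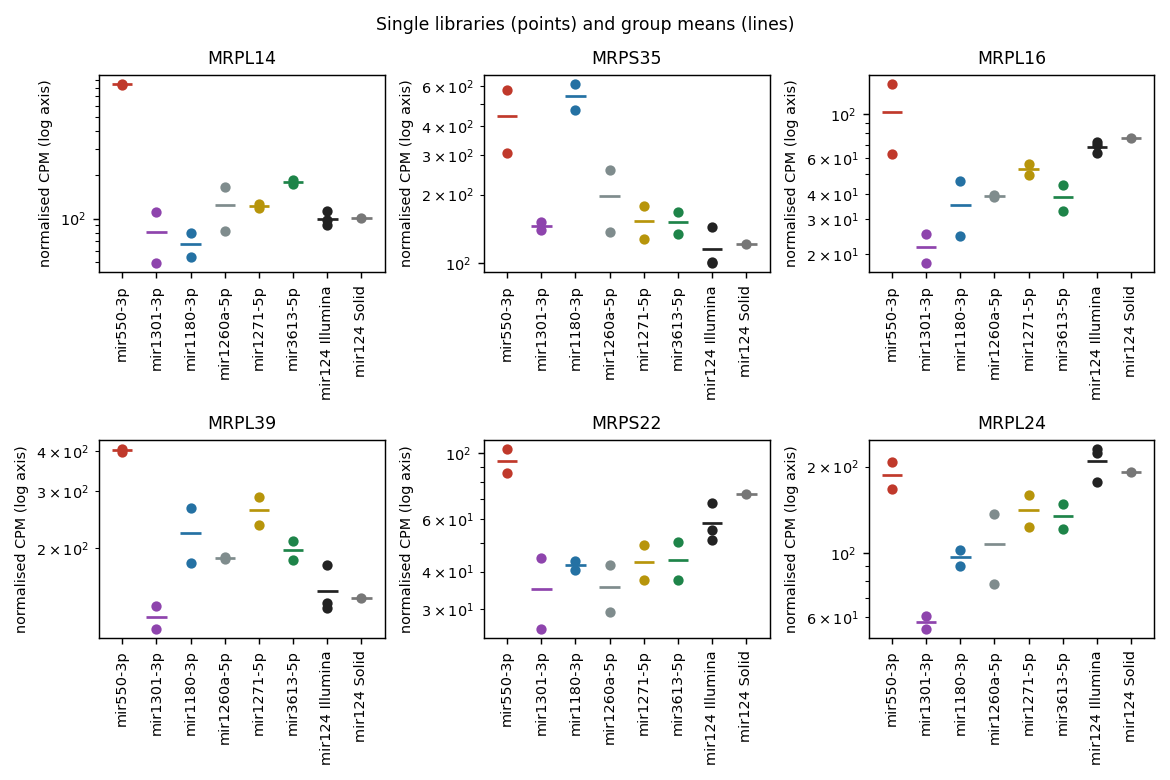
CPM on log axes of 6 MRP mRNAs by group, with each library as a point and the group mean as a line. MRPL14 lies at 853 and 836 CPM with mir550-3p and below 185 CPM in the other libraries, and MRPS35 is high both with mir1180-3p and in mir550-3p replicate 2.

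With mir1301-3p, 9 MRP mRNAs fell and none rose by the edgeR test, beside 11.5% of all genes called higher and 4.39% called lower. The 9 were 7 of the large subunit, MRPL24, MRPL39, MRPL37, MRPL41, MRPL16, MRPL15 and MRPL40, with MRPS30 and MRPS7. MRPS30 carries a small-subunit symbol but sits in the large subunit of the human particle. At an unadjusted p under 0.05, 1 was higher and 29 were lower, beside 22.7% and 13.7% of all genes, and DESeq2 called 21 lower and none higher, beside 17% of all genes called in either direction (3001 of 17658). The median log2 difference was -0.56, beside -0.02 over all genes, and 68 of 76 were negative. As a share of all counts the MRP mRNAs took 0.724% and 0.854% in the mir1301-3p libraries. That is within the range of the other 10, 0.666% to 1.08%. The scaling factors behind CPM were 1.282 and 1.315 with mir1301-3p, against 0.916 to 1.134 in the other 10, and their part was not tested. Both libraries lay below the other 10 for 15 of the 76, beside 7.62% of all genes, and above them for 0, beside 13.5%.

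MRPL24, whose bacterial counterpart lies beside the exit tunnel, had 54.6 and 60.3 CPM in the mir1301-3p libraries, against a lowest of 78.3, a median of 130 and a highest of 207 CPM in the other 10. The log2 fold change was -1.16 ± 0.30 with an edgeR adjusted p of 0.0238. MRPL39 had 132 and 112 CPM with mir1301-3p, against 179, 223 and 406 CPM as the lowest, median and highest of the other 10, a log2 fold change of -0.99 ± 0.28 with an edgeR adjusted p of 0.0297. In these 2 mRNAs the groups did not overlap. MRPL37, a large-subunit protein with no bacterial counterpart, had 91.3 and 135 CPM with mir1301-3p, against 161, 233 and 378 CPM as the lowest, median and highest of the other 10. Its log2 fold change was -1.01 ± 0.29 with an edgeR adjusted p of 0.0307. MRPS30 had 68.3 and 61.4 CPM with mir1301-3p, against 77.4, 149 and 225 CPM as the lowest, median and highest of the other 10, a log2 fold change of -1.05 ± 0.31 with an edgeR adjusted p of 0.0343. Both libraries were again below the other 10.

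The other 5 called mRNAs had log2 fold changes between -1.35 (MRPL41) and -0.82 (MRPL15) and edgeR adjusted p-values between 0.0431 and 0.0489. MRPL41, without a bacterial counterpart, had 8.30 and 28.4 CPM with mir1301-3p, against 24.4 to 75.9 CPM in the other 10, so that replicate 2 lay inside the range of the reference. MRPL15 and MRPS7 did not overlap the other 10, and MRPL16 and MRPL40 did. The 2 largest positive differences were MRPL55 at 0.81 ± 0.37, with 96.9 and 263 CPM with mir1301-3p, and MRPL42 at 0.42 ± 0.30. Neither passed. The mRNAs that MRPL24, MRPL37 and MRPS7 overlap in RefSeq (HDGF, SSBP3, GGA3 and MIF4GD) had log2 differences between -0.85 and -0.32 and did not pass. The lowest of these was GGA3 at -0.85 ± 0.40, beside -0.84 for MRPS7, which it overlaps.

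The calls changed with the scaling and with single libraries. Under upper-quartile scaling 4 MRP mRNAs were called higher (MRPL19, MRPL42, MRPL55 and MRPS9) and none lower, beside 25.1% of all genes called in either direction. The median of all genes then moved to 0.38. The MRP median less that of all genes was -0.55 under that scaling too. No MRP mRNA was called with mir550-3p left out of the reference, where the 9 had log2 fold changes between -1.20 (MRPL41) and -0.66 (MRPL15). None was called without mir1301-3p replicate 1 either, a fit in which 1 library stands for mir1301-3p, where MRPL24 was at -1.03, MRPL39 at -1.05, MRPS30 at -1.07, MRPL37 at -0.72 and MRPL41 at -0.70. In that fit 0.634% of all genes were called. Without mir1301-3p replicate 2, also a fit with 1 library for mir1301-3p, MRPL24 was at -1.31, MRPL37 at -1.41, MRPL39 at -0.95 and MRPS30 at -1.05. The count of calls was 1 without mir1180-3p replicate 1, beside 8.1% of all genes. It was 3 without either mir550-3p library, beside 8.26% and 11.4% without replicates 1 and 2. It was 5 without mir3613-5p replicate 1, beside 12.3%, and 16 without mir1271-5p replicate 2, where 4509 of 18107 genes were called (24.9%). The mir1301-3p libraries had 7612758 and 8533543 counts, among the lowest totals of the 16. Of the 8 markers of fibroblasts and mesenchyme, 6 were called higher with mir1301-3p, including COL1A1, COL1A2 and COL3A1, and none of the 8 was at 0 in any group of the 12 libraries. Of other cell types, 1 of 4 blood markers tested, the 1 keratinocyte marker tested and 0 of 3 liver markers were called higher. They were PTPRC at 1.23 (edgeR adjusted p = 0.043), with 4.51 and 3.92 CPM, and KRT5 at 2.75 (edgeR adjusted p = 0.00807). Of all genes 11.5% were called higher with mir1301-3p. The part of depth and of these markers in the result was not tested. The descriptions of the mir1301-3p and mir550-3p libraries are written in another form than those of the other 8, and what that form stands for cannot be told apart from the miRNA.

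**Figure D4:**
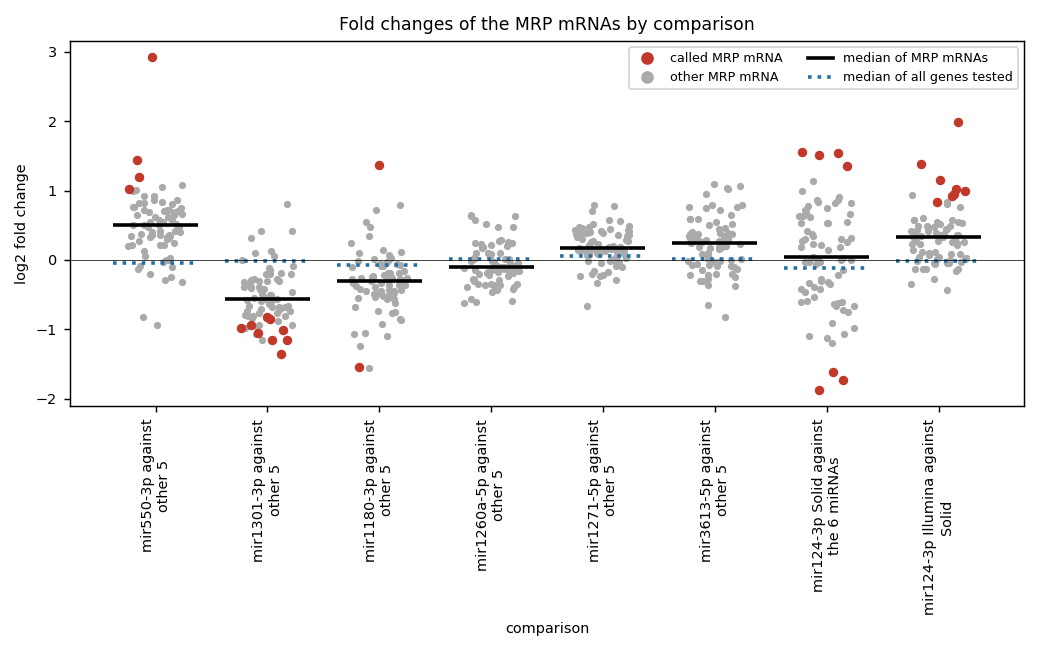
Log2 fold change of each of the 76 MRP mRNAs in 8 comparisons, with mRNAs called at an edgeR adjusted p under 0.05 in red, the MRP median as a black line and the median of all genes tested as a dotted line. The MRP median is 0.50 with mir550-3p and -0.56 with mir1301-3p, and the highest point is MRPL14 with mir550-3p at 2.92.

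With mir1180-3p, MRPS35 rose and MRPL14 fell by the edgeR test, beside 1.92% of all genes called higher and 0.153% called lower. MRPS35 is a small-subunit protein of mitochondria with no bacterial counterpart. It had 618 and 474 CPM with mir1180-3p, against a lowest of 128, a median of 159 and a highest of 581 CPM in the other 10. The highest of those was mir550-3p replicate 2, and the next, mir550-3p replicate 1, had 305 CPM. The means were 546 ± 102 CPM (SD, n = 2) with mir1180-3p and 218 ± 140 CPM (SD, n = 10) with the others, a log2 fold change of 1.36 ± 0.28 with an edgeR adjusted p of 0.0106. The groups overlapped through mir550-3p replicate 2. Leaving out mir1180-3p replicate 1 gave 1.12 with an edgeR adjusted p of 0.305, and leaving out replicate 2 gave 1.57 with an edgeR adjusted p of 0.0661, so that no MRP mRNA was called without either library.

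MRPL14 had 79.4 and 54.1 CPM with mir1180-3p, against 49.1, 146 and 853 CPM as the lowest, median and highest of the other 10, a log2 fold change of -1.54 ± 0.38 with an edgeR adjusted p of 0.0396. The groups overlapped, and the reference held the mir550-3p libraries. Without mir550-3p in the reference the value was -0.99 with an edgeR adjusted p of 0.318, so the call was lost, as it also was without either mir1180-3p, either mir3613-5p or either mir550-3p library. MRPS23, a small-subunit protein, had 323 and 401 CPM with mir1180-3p, above the highest of the other 10 at 272 CPM, at 0.79 ± 0.24 (edgeR adjusted p = 0.112). MRPL55 had the most negative value, -1.56 ± 0.44, with 59.5 and 41.1 CPM and an edgeR adjusted p of 0.0906. The median over the 76 was -0.30, beside -0.07 over all genes, and 63 of 76 were negative. At an unadjusted edgeR p under 0.05, 3 were higher and 9 lower, beside 7.28% and 6.45% of all genes. Both libraries lay above the other 10 for 1 of the 76 (MRPS23), beside 3.68% of all genes, and below them for 2 (MRPL17 and MRPS5), beside 1.34%. Without mir1301-3p replicate 1 the count of calls was 4, beside 2.18% of all genes.

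With mir1260a-5p, mir1271-5p and mir3613-5p no MRP mRNA was called by edgeR. The background was 0.215%, 0.606% and 0.0906% of genes called higher in that order, and 0% called lower in each. At an unadjusted p under 0.05 the counts were 0, 3 and 10 of the 76, beside 5.33%, 9.34% and 14.05% of all genes. DESeq2 called 0, 0 and 1, the last being MRPS11, beside 0.362%, 0.9% and 0.765% of all genes. The medians were -0.11 with mir1260a-5p, 0.18 with mir1271-5p and 0.25 with mir3613-5p. Under upper-quartile scaling they were -0.11, -0.04 and 0.08, so the sign for mir1271-5p turned, while the median of all genes was -0.19 under that scaling and 0.05 as reported. Single libraries and the choice of reference moved these medians as well. For mir1260a-5p the median was 0.04 without its replicate 1 (44 of 76 positive), -0.38 without its replicate 2 (14 positive) and 0.02 with mir550-3p left out of the reference. For mir1271-5p it was 0.04 without its replicate 1, 0.27 without its replicate 2 and 0.06 with mir1301-3p left out of the reference. For mir3613-5p it was 0.33 without its replicate 1, 0.16 without its replicate 2 and 0.13 with mir1301-3p left out of the reference.

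With mir3613-5p both libraries lay above the other 10 for 4 of the 76, beside 2.08% of all genes, and below them for 1, beside 2.8%. With mir1271-5p this was 1 above, MRPL30, beside 1.82%, and 0 below, beside 1.38%, and with mir1260a-5p 0 above, beside 1.09%, and 0 below, beside 0.515%.

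The 2 largest positive differences with mir3613-5p were MRPS11 and MRPL11, and the 2 largest negative were MRPL48 and MRPS35. MRPS11 belongs to the platform of the small subunit. It had 56.9 and 76.4 CPM with mir3613-5p, against 19.4, 33.3 and 48.9 CPM as the lowest, median and highest of the other 10, at 1.10 ± 0.28 with an edgeR adjusted p of 0.176. MRPL11, of the region that binds translation GTPases, had 273 and 429 CPM, against 107, 171 and 254 CPM, at 1.06 ± 0.30 with an edgeR adjusted p of 0.197. MRPL48, a large-subunit protein with no bacterial counterpart, had 17.1 and 18.9 CPM with mir3613-5p, against 20.7 to 53.0 CPM in the other 10, at -0.83 ± 0.31 with an edgeR adjusted p of 0.27. These 3 did not overlap the other 10 libraries and did not pass the test, and MRPS35 was at -0.65 ± 0.32 with overlap. MRPL28 at 1.03 ± 0.41 and MRPS18A at 0.95 ± 0.31 were the remaining mRNAs above all of the other 10, and neither passed.

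With mir1271-5p the largest positive values were MRPL55 at 0.79 ± 0.37 and MRPL47 at 0.78 ± 0.27, and the largest negative MRPS35 at -0.67 ± 0.32 and MRPL14 at -0.33 ± 0.34. All 4 overlapped the other 10 libraries. MRPL47 had 84.3 and 56.6 CPM with mir1271-5p, against 24.1 to 65.8 CPM in the others. ACTL6A, which MRPL47 overlaps in RefSeq, differed in the same direction, at 0.85 ± 0.34 with an edgeR adjusted p of 0.453. It had 178 and 78.3 CPM with mir1271-5p, against 39.9 to 125 CPM in the others. With mir1260a-5p the largest were MRPS18B at 0.65 ± 0.39 and MRPL4 at 0.63 ± 0.30, and the most negative MRPL40 at -0.62 ± 0.30 and MRPS6 at -0.61 ± 0.34. MRPS18B, one of the human proteins of the bS18 family, had 46.1 and 175 CPM in the mir1260a-5p libraries, which lie on either side of the reference median of 70.4 CPM. Its sign turned without replicate 2.

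The single mir124 Solid library was compared with the average of the 6 miRNAs, under the assumption that it varies as their libraries do. The titles of those libraries name no platform, so a difference of platform cannot be told apart from the miRNA. In it 4 MRP mRNAs rose (MRPS11, MRPL49, MRPL4 and MRPL44) and 3 fell (MRPS36, MRPL42 and MRPL1), beside 7.31% of all genes called higher and 1.58% called lower. The median was 0.04, beside -0.12 over all genes, and under upper-quartile scaling -0.15, beside -0.30. The spread of the 76 was wide, with a lower quartile of -0.48 and an upper quartile of 0.62.

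MRPS11 had 118 CPM in mir124 Solid, against 19.4, 34.4 and 76.4 CPM as the lowest, median and highest of the 12 libraries, a log2 fold change of 1.54 ± 0.35 with an edgeR adjusted p of 0.00946. MRPL49, a large-subunit protein with no bacterial counterpart, had 175 CPM, against 24.5, 60.8 and 85.0 CPM, a log2 fold change of 1.55 ± 0.37 with an edgeR adjusted p of 0.0129. SYVN1, which it overlaps in RefSeq, was at 0.64 ± 0.37 with an edgeR adjusted p of 0.315. MRPL4, which lines the exit tunnel, had 117 CPM, against 17.8, 46.0 and 66.1 CPM, a log2 fold change of 1.35 ± 0.37 with an edgeR adjusted p of 0.03. MRPL44, which has the fold of RNase III, had 46.0 CPM, against 4.99, 14.6 and 27.4 CPM, a log2 fold change of 1.51 ± 0.44 with an edgeR adjusted p of 0.0377. The mir124 Solid library lay above the 12 others in each of these 4.

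MRPS36 had 33.6 CPM in mir124 Solid, against 77.9, 114 and 155 CPM as the lowest, median and highest of the 12 libraries, a log2 fold change of -1.87 ± 0.48 with an edgeR adjusted p of 0.0215. Its current symbol is KGD4, and its protein is now known as a subunit of the alpha-ketoglutarate dehydrogenase complex and not of the ribosome. MRPL42 had 53.6 CPM, against 80.5, 167 and 224 CPM, a log2 fold change of -1.72 ± 0.48 with an edgeR adjusted p of 0.0328. MRPL1, of the L1 stalk that releases deacylated tRNA, had 61.0 CPM, against 121, 154 and 265 CPM, a log2 fold change of -1.62 ± 0.46 with an edgeR adjusted p of 0.0354. The library lay below all 12 in each.

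The 3 mir124 Illumina libraries lay on the same side of the 12 as mir124 Solid for all 7 of these mRNAs. This is given as values only, because the titles of the 12 name no platform. The share of all genes that did so was not counted. MRPL49, for example, had 181, 138 and 190 CPM in Illumina replicates 1, 2 and 3, above 85.0 CPM, and MRPS36 had 31.3, 44.6 and 31.9 CPM, below 77.9 CPM. Without mir550-3p replicate 2 the calls for mir124 Solid were 3, MRPS11, MRPL49 and MRPS36. The count was between 5 and 8 without each of the other libraries of the 6 miRNAs. TNRC6A took 5.11% of counts in mir124 Solid, against at most 1.49% in the 12, and its part in these differences was not tested.

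**Figure D5:**
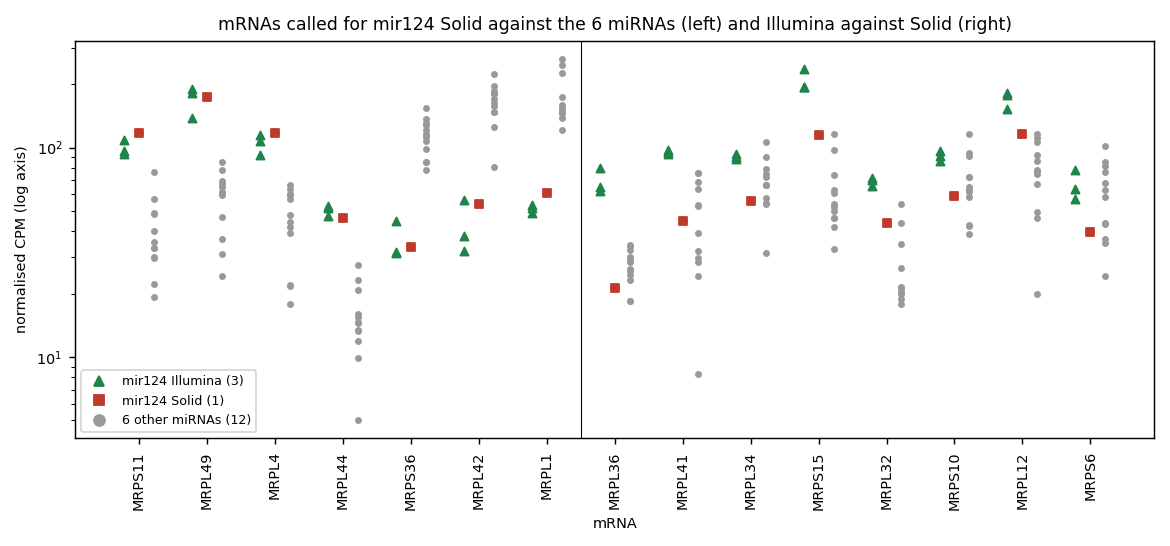
CPM, on a log axis, of the 7 mRNAs called for mir124 Solid against the 6 miRNAs (left) and the 8 called for mir124 Illumina against Solid (right), with Illumina as triangles, Solid as squares and the 12 other libraries as grey points. On the left both mir124 groups lie beyond the grey points, as for MRPS36 at 33.6 CPM in Solid against 77.9 CPM or more.

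The mir124 Illumina libraries were compared with mir124 Solid, a comparison in which platform, library preparation and the single Solid library cannot be told apart. Solid is 1 library, so the spread in this test comes from the 3 Illumina libraries alone and Solid is assumed to vary as they do. Their replicates 1 and 3 were close to each other, with a chi-square of 6.45 per degree of freedom, against 77 and 87.7 for their pairs with replicate 2. In them 8 MRP mRNAs were higher and none lower by edgeR, beside 5.93% of all genes called higher and 11.2% called lower. At an unadjusted p under 0.05, 15 were higher and none lower, beside 10.6% and 16.6% of all genes, and DESeq2 called 10 higher and none lower, beside 13.8% of all genes called in either direction. The median was 0.32, beside -0.01 over all genes, with 61 of 76 positive. The MRP share of counts was 0.732%, 0.704% and 0.723% in Illumina replicates 1, 2 and 3, lower than the 0.859% in Solid. The scaling factors behind CPM were 0.857, 0.765 and 0.819 for these libraries, against 1.008 for Solid, and their part was not tested. Under upper-quartile scaling the median was 0.13, beside -0.20 over all genes, with 48 of 76 positive. MRPL36, a very short protein that binds zinc in bacteria, had 62.0, 80.2 and 65.1 CPM in Illumina replicates 1, 2 and 3, against 21.3 CPM in Solid. All 3 libraries were above, with a log2 fold change of 1.99 ± 0.29 and an edgeR adjusted p of 0.00395. MRPL41 had 93.7, 97.2 and 95.5 CPM, against 44.5 CPM in Solid, at 1.39 ± 0.23 with an edgeR adjusted p of 0.0058.

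The other 6 were MRPS15, MRPL34, MRPL32, MRPS10, MRPL12 and MRPS6, with log2 fold changes between 0.83 (MRPL12) and 1.15 (MRPS15). MRPL12 forms the stalk that recruits translation factors and also binds the mitochondrial RNA polymerase. The most negative were MRPL22 at -0.43 ± 0.20 and MRPL13 at -0.34 ± 0.24, which did not pass. The value for MRPS6 is uncertain, because its counts were identical to those of SLC5A3, a gene it overlaps, in all 3 Illumina libraries and in none of the other 13. SLC5A3 was also called, at 2.14 ± 0.32 with an edgeR adjusted p of 0.00401. MRPS24 and the readthrough entry URGCP-MRPS24 likewise had identical counts in the 3 Illumina libraries, and in 1 of the other 13. Of the 76 mRNAs, 17 overlap another gene of the table and 41 have listed pseudogenes, and whether counting used strand is not given in these sources. Without Illumina replicate 1 the calls were 3 (MRPL36, MRPL41 and MRPS15) and without replicate 3 they were 4, beside 15.5% and 16.3% of all genes. Without replicate 2, the library that stands apart, they were 43, of which 37 were higher and 6 lower. In that fit 45.6% of all genes were called.

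With mir550-3p the medians were 0.41 for MRPL and 0.55 for MRPS mRNAs, and with mir1301-3p they were -0.59 and -0.55. Split by origin, the 28 mRNAs whose proteins have no bacterial counterpart had medians of 0.56 with mir550-3p and -0.67 with mir1301-3p, beside 0.49 and -0.55 for the 48 that have one. None of these differences was tested.

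Other genes of mitochondrial translation were taken from 5 lists: ribosomal proteins under other symbols (7 in the table), ribosome assembly (23), translation factors (17), aminoacyl-tRNA synthetases (22) and mitochondrial RNA synthesis and maturation (25). With mir550-3p 1 of these 94 genes rose and none fell by edgeR, beside 1.2% and 0.306% of all genes. At an unadjusted p under 0.05 15 were higher and 0 lower, beside 9.02% and 7.4% of all genes. The gene called was METTL17, an assembly factor of the small subunit, with 52.5 and 59.8 CPM, against 11.6 to 41.97 CPM in the other 10, at 1.20 ± 0.28 with an edgeR adjusted p of 0.0414. The medians of the 5 lists were between 0.13 and 0.51 with mir550-3p. MALSU1, the partner of MRPL14, had 280 and 265 CPM there, against 150 to 247 CPM in the other 10, and did not pass.

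With mir1301-3p no gene of these lists rose and 7 fell by edgeR, with list medians between -0.65 and -0.38, beside 11.5% of all genes called higher and 4.39% called lower. At an unadjusted p under 0.05 3 were higher and 30 lower, beside 22.7% and 13.7% of all genes. METTL17 fell by 1.07 ± 0.33 on the log2 scale (edgeR adjusted p = 0.0407), and RARS2, the mitochondrial arginyl-tRNA synthetase, by 1.08 ± 0.29 (edgeR adjusted p = 0.0238). With mir1180-3p 2 translation factors rose and TBRG4, a regulator of mitochondrial mRNAs, fell, beside 1.92% and 0.153% of all genes. At an unadjusted edgeR p under 0.05 5 of the 94 were higher and 13 lower, beside 7.28% and 6.45% of all genes. The list medians with mir1180-3p were between -0.37 and -0.10, and that of the translation factors was -0.28. MTIF3, the initiation factor that helps part the subunits, had 294 and 272 CPM with mir1180-3p, against 51.3 to 142 CPM in the other 10, at 1.54 ± 0.24 with an edgeR adjusted p of 0.000877. LRPPRC, which stabilises mitochondrial mRNAs, had 560 and 376 CPM, against 135 to 302 CPM, at 1.13 ± 0.25 with an edgeR adjusted p of 0.0173. Neither overlapped the others.

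With mir1271-5p MRRF and PDF rose and none fell by edgeR, beside 0.606% and 0% of all genes. At an unadjusted p under 0.05 8 were higher and 0 lower, beside 6.32% and 3.02% of all genes. MRRF, the ribosome recycling factor, had 70.2 and 98.1 CPM, against 23.6 to 55.6 CPM in the other 10, at 1.39 ± 0.26 with an edgeR adjusted p of 0.0154. PDF, which removes the formyl group from new peptides, had 170 and 142 CPM, against 50.6 to 107 CPM, at 1.21 ± 0.25 with an edgeR adjusted p of 0.0317. No gene of the 5 lists was called by edgeR with mir1260a-5p or mir3613-5p, beside 0.215% and 0.0906% of all genes called higher and none lower. At an unadjusted p under 0.05 2 were higher with mir1260a-5p, beside 3.74% of all genes, and 5 were higher and 1 lower with mir3613-5p, beside 8.13% and 5.92%.

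In mir124 Solid 18 of the 94 rose and 2 fell, beside 7.31% and 1.58% of all genes. Assembly factors were 6 of the higher and 1 of the lower. ERAL1, the GTPase that binds the small-subunit rRNA, had 494 CPM in mir124 Solid, against 11.7 to 44.0 CPM in the 12 libraries, at 4.40 ± 0.32 with an edgeR adjusted p of 4.49e-07. PTCD3, a protein of the small subunit that carries no MRP symbol, had 604 CPM, against 51.9 to 148 CPM, at 2.60 ± 0.32 with an edgeR adjusted p of 7.99e-05. MALSU1 had 76.3 CPM, against 150 to 280 CPM, at -1.59 ± 0.39 with an edgeR adjusted p of 0.0155. The ERAL1 value exceeded that of any of the 76 MRP mRNAs in the same comparison. In Illumina replicates 1, 2 and 3 ERAL1 had 639, 448 and 491 CPM and PTCD3 493, 318 and 557 CPM, above all 12 libraries of the other miRNAs.

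In the mir124 Illumina libraries 6 of the 94 were higher than in Solid and 1 was lower, beside 5.93% and 11.2% of all genes. MTRF1L, a release factor of mitochondrial translation, had 92.5, 106 and 96.0 CPM in Illumina replicates 1, 2 and 3, against 14.01 CPM in Solid, at 3.10 ± 0.28 with an edgeR adjusted p of 0.000481. The lower one was GATC, a subunit of the enzyme that makes glutaminyl-tRNA in mitochondria, with 77.4, 100.6 and 69.6 CPM against 241.9 CPM, at -1.26 ± 0.27 with an edgeR adjusted p of 0.0153.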

How the data were processed

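RNA recovered by RISC-trap from HEK 293 cells was sequenced in 16 libraries. The authors deposited 1 table of raw read counts per RefSeq entry, with 1 column per library and no normalisation, as the file header and whole-number values show. TopHat2 and hg19 are named in the submitters' processing notes, while versions, counter, strand setting and annotation are not given in the sources used. Every column was matched to 1 library through its title and description, and 0 columns were left unused. Groups were the miRNA of each title, with mir124-3p parted by platform.

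Counts were tested on the whole table in R 4.3.3 with edgeR 4.0.16 (filterByExpr, TMM scaling, robust quasi-likelihood F tests, two-sided), with Benjamini-Hochberg adjustment over all genes of a comparison and calls at an adjusted p under 0.05. Contrasts were each 2-library miRNA against the average of the other 5, mir124 Solid against the average of the 6, and mir124 Illumina against Solid. Log2 fold changes carry standard errors and CPM standard deviations. The common biological coefficient of variation of the 12 libraries was 0.35. Alternatives were DESeq2 1.42.0, other scalings, no filter, the replicate number as a block, each library left out, and references without mir1301-3p or, chosen after seeing the data, without mir550-3p or with only the 8 libraries described by sample number. The steps were tested on simulated data.

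The members follow from their symbols, and members and lists were chosen with earlier results of these data known. Named were all MRP mRNAs called, the 2 largest differences in each direction of each comparison, the 3 highest and 3 lowest by median CPM, and up to 3 called genes per further list and comparison. Genes named as calls of an alternative, with identical counts, just short of the threshold or for not overlapping the other libraries, and markers named as called, were chosen after their values were seen. Symbols, overlaps and pseudogenes came from RefSeq (GRCh38.p14), which matched 18560 entries by accession. Pairing by sequence and transcript lengths were not analysed here.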

Additional observations from a re-analysis of the deposited data

How the results depend on the processing

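MRPL14 with mir550-3p was called under all 18 alternatives run. The count of MRP mRNAs called with mir550-3p was 11 with DESeq2, 8 without a filter on low counts, 7 with RLE size factors and 1 with mir1301-3p left out of the reference, and lay between 1 and 7 when single libraries were left out. With mir1301-3p it was 21 with DESeq2, 4 (all higher) under upper-quartile scaling and 0 without mir550-3p in the reference, and between 0 and 16 without single libraries. With mir1180-3p it was 6 with DESeq2, 4 without mir1301-3p and 1 without mir550-3p in the reference, and between 0 and 4 without single libraries. DESeq2 called 1 with mir3613-5p, beside 0.765% of all genes. The share of all genes called moved with the setting as well. For mir550-3p it was 4.89% with DESeq2, 1.97% without a filter, 2.04% with RLE size factors and 0.723% with mir1301-3p left out. For mir1301-3p it was 17% with DESeq2, 25.1% under upper-quartile scaling and 6.29% without mir550-3p in the reference. For mir1180-3p it was 3.91% with DESeq2, 2.67% without mir1301-3p and 1.62% without mir550-3p in the reference. For any difference among the 6 miRNAs the count was 24 with DESeq2, 7 without a filter and 2 under upper-quartile scaling, and between 1 and 7 without single libraries. For mir124 Solid it lay between 3 and 8 without single libraries. For Illumina against Solid it was 4 under upper-quartile scaling, beside 17% of all genes. Without single libraries it was between 3 and 43, beside 15.5% to 45.6% of all genes. For any difference among the 6 miRNAs the share of all genes under these settings is not given here. The causes of the changes in counts were not tested, beyond the fewer libraries that some settings use.

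Among the named log2 fold changes the sign turned in 4 cases, none of them called: MRPL14 with mir1271-5p was 0.14 with only the 8 libraries described by sample number and 0.27 without mir550-3p in the reference, MRPL55 with mir1301-3p was -0.19 without mir1301-3p replicate 2 (1.38 without replicate 1), and MRPS18B with mir1260a-5p was -0.68 without mir1260a-5p replicate 2 (1.27 without replicate 1). Medians over the 76 turned sign for mir1260a-5p (0.04 without its replicate 1, 0.02 without mir550-3p in the reference), for mir1271-5p (-0.04 under upper-quartile scaling) and for mir124 Solid (-0.15 under upper-quartile scaling, and within 0.01 below 0 without mir1260a-5p replicate 1, mir3613-5p replicate 1 or mir550-3p replicate 2). Whether libraries of different miRNAs with the same replicate number share a batch is not given in the labels. Deviations of replicate 1 correlated between -0.14 and 0.361 over 15 pairs of miRNAs, 6 of them over 0.1, which does not settle it. With the replicate number as a block 7 MRP mRNAs were called for any difference among the 6 miRNAs, 3 of them among the 4 reported.

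With 2 libraries per miRNA, precision is limited by the number of libraries, since every MRP mRNA had at least 56 counts in each.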
